A study of Mus musculus with 8 samples.

Results

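The 10 genes described here belong to the BCL2 family, whose proteins decide at the mitochondrion whether a cell lives or dies. They were chosen by gene symbol: the survival genes Bcl2, Bcl2l1, Mcl1, Bcl2a1b and Bcl2a1d, and the death genes Bcl2l11, Bax, Bak1, Bid and Bbc3. All 10 were found among the 22609 genes counted, and all 10 passed the filter on low counts that left 10073 genes for testing. CD8 T cells were sorted from livers of male C57BL/6J mice, 6 weeks of age, into 2 subsets. The first was CD11c+KLRG1+CD127- and the second CD11c-KLRG1+CD127-, with 4 RNA-seq libraries of each, and both were gated as live cells positive for CD45, TCRβ and CD8α and negative for MHCII, NK1.1 and CD4. Every mouse of both subsets had been given an agonist antibody against the costimulatory receptor CD137 on day 0, day 3 and day 6, and livers were collected on day 8. No library from untreated mice was analysed here, so the values show how the subsets differ under the antibody and not what the antibody did. Whether each library stands for a mouse of its own is not in the labels. The spread between libraries, which every p-value here rests on, may therefore be technical.

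BCL2, BCL-XL (from Bcl2l1), MCL1 and A1 (from the Bcl2a1 genes) are survival proteins that bind and hold back the pore formers BAX and BAK. BIM (from Bcl2l11), PUMA (from Bbc3) and BID are BH3-only death proteins, which use a short helix, the BH3 domain, to occupy the groove of the survival proteins or to activate BAX and BAK. In T cells, interleukin 7 signalling sustains BCL2, BIM drives the loss of effector cells after a response, and CD137 signalling is known to induce BCL-XL and A1. KLRG1+CD127- cells are usually described as short-lived effectors.

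The BH3 stretch is the feature that joins the family and lets a death protein dock on a survival protein, so its coding sequence is shown for the members in which it was found. The stretch was located in the translated coding sequence of the GENCODE M21 transcript (GRCm38 annotation) with the longest coding part, as leucine, 3 residues of any kind, glycine or alanine, aspartate, and then aspartate, glutamate or glycine. Exactly 1 match was present in 8 of the members. Each line gives 60 coding bases, 5′ to 3′ on the mRNA strand, and the capitals mark the 18 bases from the leucine codon to the first aspartate codon.
Bcl2l11: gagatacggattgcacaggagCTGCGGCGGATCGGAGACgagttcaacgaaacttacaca
Bbc3: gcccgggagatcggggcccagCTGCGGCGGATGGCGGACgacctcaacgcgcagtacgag
Bid: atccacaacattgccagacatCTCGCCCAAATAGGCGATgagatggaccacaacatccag
Bax: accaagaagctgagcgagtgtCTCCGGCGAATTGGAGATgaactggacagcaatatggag
Bak1: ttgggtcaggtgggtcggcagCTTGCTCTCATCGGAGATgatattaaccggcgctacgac
Mcl1: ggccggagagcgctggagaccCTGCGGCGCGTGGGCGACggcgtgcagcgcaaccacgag
Bcl2: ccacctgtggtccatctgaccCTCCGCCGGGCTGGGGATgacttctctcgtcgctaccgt
Bcl2l1: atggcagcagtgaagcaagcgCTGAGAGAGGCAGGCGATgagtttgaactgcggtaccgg
Of the 18 core bases, Bbc3 shared 15 with Bcl2l11, Mcl1 and Bax 14, Bcl2 and Bak1 11, and Bid and Bcl2l1 9. The pattern had no match in Bcl2a1b and Bcl2a1d, which says only that these letters are not in their coding sequences.

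Bcl2a1b and Bcl2a1d are near-identical copies on chromosome 9, and this sets what their counts can show. The coding sequences of Bcl2a1b and Bcl2a1d were 98.8% identical, with 6 differing bases among 516. The first 90 coding bases, which hold 2 of these differences (capitals), show how alike the copies are.
Bcl2a1b: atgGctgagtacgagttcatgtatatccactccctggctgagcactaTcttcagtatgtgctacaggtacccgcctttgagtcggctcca
Bcl2a1d: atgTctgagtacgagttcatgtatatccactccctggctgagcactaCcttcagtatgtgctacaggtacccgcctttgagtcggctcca
Reads were 50 bases long. Of all 50-base windows in the Bcl2a1b transcript, 79.2% also occurred in an annotated transcript of another gene, and of those in the Bcl2a1d transcript 79.5%. Reads placed at more than 1 site were not assigned to genes, so the levels of both copies rest on the remaining windows and are uncertain. Windows shared with a transcript of another gene made up 24.5% for Bid, 18.2% for Bak1 and 17.6% for Bax, against 6.75% for Bcl2, 0.221% for Bcl2l11 and 0% for Bcl2l1, Mcl1 and Bbc3. The sharing gene was Bcl2l13 for Bid, Ggnbp1 for Bak1 and Gm45808 for Bax. Windows were matched on both strands. Genes that overlap a member at the same site, where a read has 1 place, were not told apart from copies elsewhere.

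Libraries held 5090345 to 6430608 gene reads in CD11c+ cells and 5288939 to 7093163 in CD11c- cells, with 10482 to 12581 and 10783 to 12322 genes detected. The 5 T cell markers found (Cd3d, Cd3e, Cd3g, Cd8a and Cd8b1) summed to 5117 to 6293 CPM (a gene's reads scaled to the size of its library, with TMM factors from edgeR that adjust for composition) in CD11c+ and 5419 to 5853 CPM in CD11c- libraries. Hepatocyte markers (4 genes) summed to at most 5.06 and 4.93 CPM, and the red cell genes Hba-a1 and Hbb-b1 were at 0 in all libraries. Neutrophil markers (6 of 7 listed genes found, Mpo at 0 throughout) ranged more widely, from 2.27 to 282 CPM in CD11c+ and from 7.003 to 114 CPM in CD11c- libraries, with the highest value in CD11c+ replicate 3. Dendritic cell markers (7 genes, Itgax not among them) were at 33.4, 43.7, 83.2 and 78.7 CPM in CD11c+ and at 18.4, 17.9, 10.7 and 42.99 CPM in CD11c- replicates 1 to 4, and natural killer cell markers (4 genes) at 11.5 to 80.4 and 6.31 to 37.2 CPM. Their part in the results was not tested. Itgax, which encodes CD11c, averaged 243 ± 76.4 CPM in CD11c+ and 10.1 ± 5.64 CPM in CD11c- cells (SD, n = 4 each). In bulk samples fewer cells of a type and less RNA per cell cannot be told apart.

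No difference between the subsets in a survival or death gene of the family was larger than the spread of the libraries allowed to call. By edgeR's quasi-likelihood test with Benjamini-Hochberg adjustment over all 10073 genes, 0 of 10 members passed the threshold of 0.05, beside 5 genes in all (0.0496%). At an unadjusted p under 0.05, 0 of 10 members passed, beside 4.7% of all genes tested, so that a count of 0 among 10 is near the background. DESeq2 (0.288% of genes called at an adjusted p under 0.05) and limma voom with quality weights (0.189%) also called 0 members. An unadjusted p under 0.05 was reached by 0 members with DESeq2 and by 1 with limma voom. The share of all genes at that cut was not counted for these 2 methods, so the 1 member has no background beside it. The fit with the replicate number as a block called 11 genes higher and 2 lower (0.129%), against 3 and 2 without it, and again 0 members. For no member did the libraries of one subset lie wholly above or below those of the other. Among all genes tested, 1.85% had all 4 CD11c+ libraries below the CD11c- libraries and 1.6% had them all above. Of the 10 log2 fold changes, CD11c+ minus CD11c-, 5 were positive and 5 negative, with a median of 0.00 beside 0.01 over all genes tested.

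**Figure D1:**
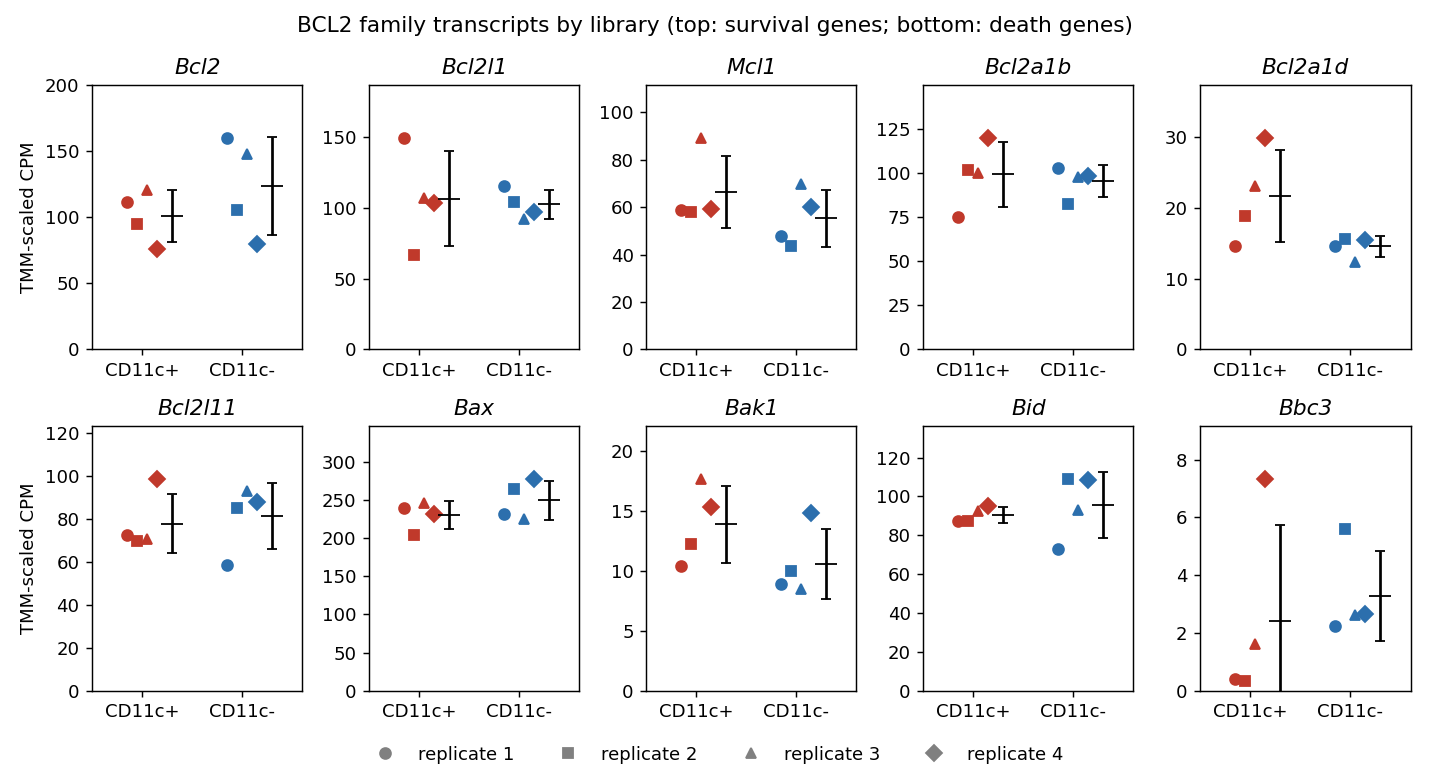
Level of each family member in each library as TMM-scaled CPM (y axis from 0, own scale per panel), CD11c+ left and CD11c- right. Coloured symbols are libraries and the black marks are mean ± SD (n = 4). The SD bar of Bbc3 in CD11c+ cells reaches below 0 and is cut there. In all 10 panels the subsets overlap.

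The survival gene Bcl2 was at 112, 95.2, 120 and 75.8 CPM in CD11c+ replicates 1 to 4. In CD11c- replicates 1 to 4 it was at 160, 106, 148 and 79.99 CPM. The levels of the subsets overlapped widely, since CD11c- replicate 4 lay under 3 of the CD11c+ libraries. The mean was 101 ± 19.7 CPM in CD11c+ and 124 ± 37.2 CPM in CD11c- cells (SD, n = 4 each), a ratio of 0.816 with a 95% interval of 0.583 to 1.14. The adjusted p of edgeR's test was 0.991. Libraries with the same number moved together for Bcl2: number 4 was lowest and number 2 next in both subsets, while numbers 1 and 3 were the highest ones. Within each number the CD11c+ library was the lower of the pair, in 4 of 4 pairs, by 0.08 to 0.52 on the log2 scale. Agreement of all 4 pairs in one direction arises by chance too often to pass a threshold of 0.05. Its share over all genes tested was not counted, so it calls no shift of Bcl2. With the replicate number as a block the log2 fold change of Bcl2 was -0.26 (SE 0.14), and edgeR's unadjusted p was 0.0915 and adjusted p 0.851. Averaged over the subsets, the log2 CPM of Bcl2 differed by 0.78 between the highest and the lowest replicate number. The subsets differed by 0.29 in the unpaired fit. These measures are not alike, since a span over 4 means tends to exceed a difference between subset means. The number of genes detected also differed between libraries. It was 10482, 10892, 11533 and 12581 in CD11c+ replicates 1 to 4, and 10783, 12322, 12120 and 12294 in CD11c- replicates 1 to 4. Its part in the Bcl2 levels was not tested.

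Mcl1, which encodes the short-lived survival protein that T cells depend on, was at 58.7, 57.97, 89.3 and 59.4 CPM in CD11c+ replicates 1 to 4. In CD11c- replicates 1 to 4 it was at 47.7, 43.6, 69.8 and 60.1 CPM. CD11c+ replicate 3 stood above all other libraries, and the remaining values of the subsets overlapped. Mcl1 averaged 66.3 ± 15.3 CPM in CD11c+ and 55.3 ± 11.9 CPM in CD11c- cells (SD, n = 4 each), 1.20-fold with an interval of 0.865 to 1.67 (edgeR, adjusted p = 0.991). The order of the replicate numbers was the same in both subsets, from number 3 through 4 and 1 to 2. In 3 of the 4 pairs the CD11c+ library was the higher one, with log2 differences of 0.30, 0.41, 0.35 and -0.02 for numbers 1 to 4.

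**Figure D2:**
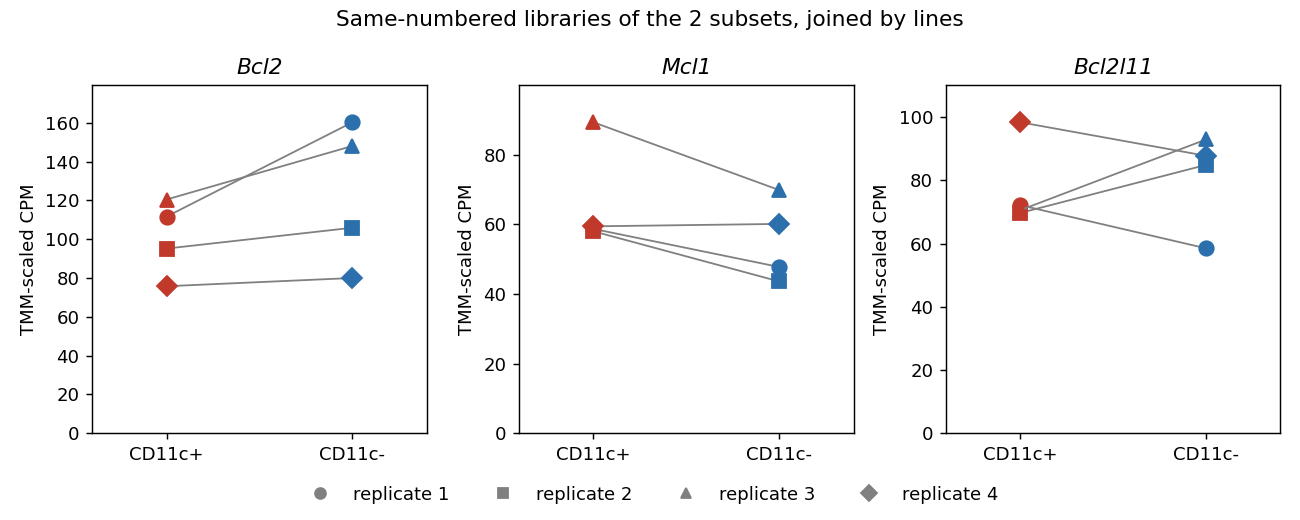
Bcl2, Mcl1 and Bcl2l11 in TMM-scaled CPM (y axis from 0), with lines that join the CD11c+ library (left) and the CD11c- library (right) of the same replicate number. Bcl2 is lower in CD11c+ cells in 4 of 4 pairs, Mcl1 is higher in 3 of 4, and the lines of Bcl2l11 cross. Agreement in 4 of 4 pairs is too frequent by chance to call a shift.

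Bcl2l1, the gene of BCL-XL, spread most among CD11c+ libraries, at 149.6, 66.7, 107 and 104 CPM in replicates 1 to 4. CD11c- replicates 1 to 4 lay between these extremes, at 116, 104, 92.2 and 97.3 CPM. The means were 107 ± 33.9 CPM in CD11c+ and 102 ± 10.3 CPM in CD11c- cells (SD, n = 4 each), 1.04-fold with an interval of 0.758 to 1.43 (edgeR, adjusted p = 0.998). Without CD11c+ replicate 1, the library with the fewest detected genes, the log2 fold change was -0.15 in place of 0.06.

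The A1 genes, targets of NF-κB, split in how even they were. Bcl2a1b was at 75.3, 102, 99.9 and 120 CPM in CD11c+ replicates 1 to 4 and at 103, 82.5, 97.8 and 98.3 CPM in CD11c- replicates 1 to 4. The CD11c+ libraries held both the lowest and the highest value. Its ratio was 1.04 with an interval of 0.810 to 1.34 (edgeR, adjusted p = 0.996), and the log2 fold change of 0.06 was -0.055 without CD11c+ replicate 4 and -0.01 without CD11c- replicate 2. Bcl2a1d was at 14.7, 18.9, 23.2 and 29.9 CPM in CD11c+ replicates 1 to 4 and at 14.7, 15.7, 12.4 and 15.5 CPM in CD11c- replicates 1 to 4. Of the CD11c+ libraries 3 lay above all CD11c- libraries, and replicate 1 lay among them. With means of 21.7 ± 6.52 and 14.6 ± 1.503 CPM (SD, n = 4 each), it had the largest positive log2 fold change among the members, 0.57 (SE 0.30), or 1.49-fold with an interval of 0.941 to 2.35. Its adjusted p by edgeR's test was 0.991. Limma voom with quality weights gave it an unadjusted p of 0.00977 and an adjusted p of 0.69. Neutrophils and macrophages also express A1 genes. The neutrophil markers summed to 34.4, 2.27, 282 and 43.8 CPM in CD11c+ replicates 1 to 4 and to 28.6, 7.003, 114 and 58.3 CPM in CD11c- replicates 1 to 4, and the monocyte and macrophage markers (7 genes) to 93.9 to 367 and 94.7 to 203 CPM. Bcl2a1d was highest in CD11c+ replicate 4, and both marker sums were highest in CD11c+ replicate 3. Dendritic cell markers (7 genes) summed to 33.4, 43.7, 83.2 and 78.7 CPM in CD11c+ replicates 1 to 4. In CD11c- replicates 1 to 4 they summed to 18.4, 17.9, 10.7 and 42.99 CPM. Of these 7 genes only 1 passed the filter on low counts. As for Bcl2a1d, the highest sums of dendritic cell markers were in CD11c+ replicates 3 and 4. The same held for the natural killer cell markers, at 80.4 and 49.6 CPM in these 2 libraries. The part of these cells in the A1 counts was not tested.

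Bcl2l11, the gene of BIM, was at 72.1, 69.7, 70.6 and 98.4 CPM in CD11c+ replicates 1 to 4 and at 58.5, 84.9, 92.9 and 87.7 CPM in CD11c- replicates 1 to 4. In each subset 3 libraries lay close together and 1 stood apart, above them in CD11c+ cells and below them in CD11c- cells. The means, 77.7 ± 13.8 CPM in CD11c+ and 81.0 ± 15.4 CPM in CD11c- cells (SD, n = 4 each), gave a ratio of 0.959 with an interval of 0.719 to 1.28 (edgeR, adjusted p = 0.996). The log2 fold change of -0.06 was 0.0016 without CD11c- replicate 3. The count sums all splice forms of the gene, whose proteins differ in how strongly they kill.

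The pore former Bax had the highest CPM of the family in every library. It was at 239, 204, 247 and 231 CPM in CD11c+ replicates 1 to 4 and at 232, 264, 225 and 278 CPM in CD11c- replicates 1 to 4. Its ratio of 0.923 had the narrowest interval of the family, 0.771 to 1.10 (edgeR, adjusted p = 0.991). Bak1, the other pore former, was at 10.4, 12.2, 17.6 and 15.3 CPM in CD11c+ replicates 1 to 4, against 8.91, 9.94, 8.46 and 14.8 CPM in CD11c- replicates 1 to 4. In 4 of 4 same-numbered pairs the CD11c+ library was higher, by 0.05 to 1.05 on the log2 scale, and the subsets still overlapped. As for Bcl2, such agreement of 4 pairs is too frequent by chance to call a shift. The log2 fold change of Bak1 was 0.40 (SE 0.36), with an interval of 0.764 to 2.27 for the ratio (edgeR, adjusted p = 0.991).

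Bid, whose protein is cut and activated by caspase 8 and by granzyme B, was at 87.4, 87.1, 92.3 and 95.1 CPM in CD11c+ replicates 1 to 4. In CD11c- replicates 1 to 4 it was at 72.8, 109, 92.9 and 108 CPM, so that the CD11c+ values lay inside the CD11c- range. The ratio was 0.944 with an interval of 0.740 to 1.20 (edgeR, adjusted p = 0.992). Bbc3, a p53 target, was the least abundant member. Its read counts were 2, 2, 9 and 47 in CD11c+ replicates 1 to 4 and 12, 40, 14 and 15 in CD11c- replicates 1 to 4. In CPM these were 0.391, 0.349, 1.603 and 7.33 against 2.23, 5.60, 2.63 and 2.64. The highest and the 3 lowest values were all in CD11c+ libraries. The log2 fold change was -0.43 (SE 0.94, edgeR, adjusted p = 0.992), and the interval of the ratio, 0.181 to 3.06, was the widest of the family. The value rested on CD11c+ replicate 4, the library with 47 reads: without it the log2 fold change was -2.05 (edgeR, adjusted p = 0.9), and without any other single library it lay between -0.58 and -0.05. With the replicate block it was -1.27 (edgeR, adjusted p = 0.884). Leaving out the 3 libraries in which fewest genes were detected, 2 of them CD11c+, the log2 fold change was 0.29.

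**Figure D3:**
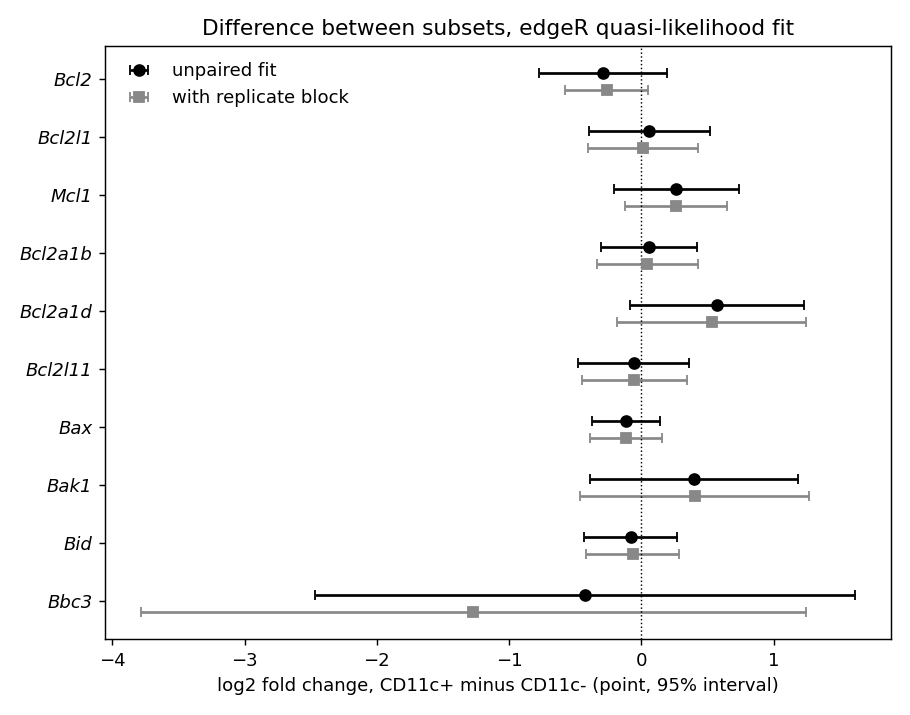
Log2 fold change of each member, CD11c+ minus CD11c- (x axis), from edgeR's unpaired fit (black circles) and from the fit with the replicate number as a block (grey squares). Bars are 95% intervals, and all 20 include 0. The interval is narrowest for Bax and widest for Bbc3.

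Scaled per kilobase of annotated exon (GENCODE M21, union of exons), the order of mean levels over the 8 libraries was Bax, Bcl2a1b, Bid, Bcl2l1, Bcl2a1d, Mcl1, Bcl2, Bcl2l11, Bak1 and Bbc3. Bax was at 146 ± 11.8 CPM per kb in CD11c+ and 158 ± 16.1 in CD11c- cells, and Bcl2a1b at 121 ± 22.4 and 117 ± 10.9 (SD, n = 4 each). Their library ranges, 129.5 to 176 and 92.1 to 147, overlapped each other and no other member's. From Bid (26.2 on average) through Bcl2l1 (22.8), Bcl2a1d (20.99) and Mcl1 (17.8) to Bcl2 (12.2) and Bcl2l11 (9.88), each member's range overlapped that of its neighbours. Bak1 averaged 5.07 CPM per kb, with a highest value of 7.33 just above the lowest of Bcl2l11 (7.28), and Bbc3 averaged 1.34. When the length of the transcript with the longest coding part was used in place of the exon union, Bax was at 277, Bcl2l1 at 40.7 and Bid at 38.6 CPM per kb, so Bcl2l1 and Bid changed places. Bcl2l11 (15.8) and Bcl2 (15.6) did so too, and the order within this pair thus depended on the length used. The annotation used by the authors for counting is not given in the sources used here, and shared windows lower the values of both A1 genes.

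The balance of death to survival transcripts was compared through 5 ratios of read counts, in which library size cancels. Gene length cancels only when a ratio is compared between libraries. The level of a ratio is therefore one of reads and not of transcript numbers. BIM to BCL2 is the ratio most often used for effector T cells. Bcl2l11 to Bcl2 was 0.647, 0.732, 0.586 and 1.30 in CD11c+ replicates 1 to 4 and 0.365, 0.802, 0.628 and 1.10 in CD11c- replicates 1 to 4. Library number 4 had the highest ratio in both subsets, and no split by CD11c was seen. The mean log2 ratio differed by 0.21 (SE 0.42) between CD11c+ and CD11c- cells, with p = 0.657 in a two-sided exact permutation test and 0.857 after Benjamini-Hochberg adjustment over the 5 ratios. The sign turned without CD11c+ replicate 4 (-0.04) and without CD11c- replicate 1 (-0.08).

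Bcl2l11 to Mcl1 averaged 1.22 ± 0.353 in CD11c+ and 1.49 ± 0.319 in CD11c- cells (SD, n = 4 each), a log2 difference of -0.32 (SE 0.26, exact permutation p = 0.343, adjusted p = 0.857). Bcl2l11 to Bcl2l1 averaged 0.784 ± 0.259 and 0.807 ± 0.217, and its log2 difference of -0.06 (exact permutation p = 0.886) was 0.15 without CD11c+ replicate 1. Bax to Bcl2 averaged 2.35 ± 0.472 in CD11c+ and 2.23 ± 0.953 in CD11c- cells. Its log2 difference was 0.15 (exact permutation p = 0.629), and -0.03 without CD11c- replicate 1. Bak1 to Mcl1, the pair in which MCL1 holds BAK, averaged 0.212 ± 0.0340 and 0.197 ± 0.0555, with a log2 difference of 0.14 (exact permutation p = 0.686) that was -0.07 without CD11c- replicate 3. After adjustment over the 5 ratios the p-values of these exact permutation tests were 0.857 or 0.886. All 5 ratios overlapped between the subsets. The smallest p such an exact permutation test of 4 against 4 libraries can give is 0.0286. After adjustment over the 5 ratios, 1 ratio alone at that p would stay above 0.05. The test could thus not call a single ratio by itself. Over all 25 ratios of a death to a survival member, 0 separated the subsets. Chance assignment of libraries separates a ratio with a probability of 0.0286, so 0 of 25 is near that background. The 25 ratios share 10 genes and are not independent. Of their log2 differences, 7 were positive and 18 negative. The log2 differences of the 20 ratios without Bbc3 ran from -0.64 to 0.66, and with Bbc3 the lowest was -1.83.

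**Figure D4:**
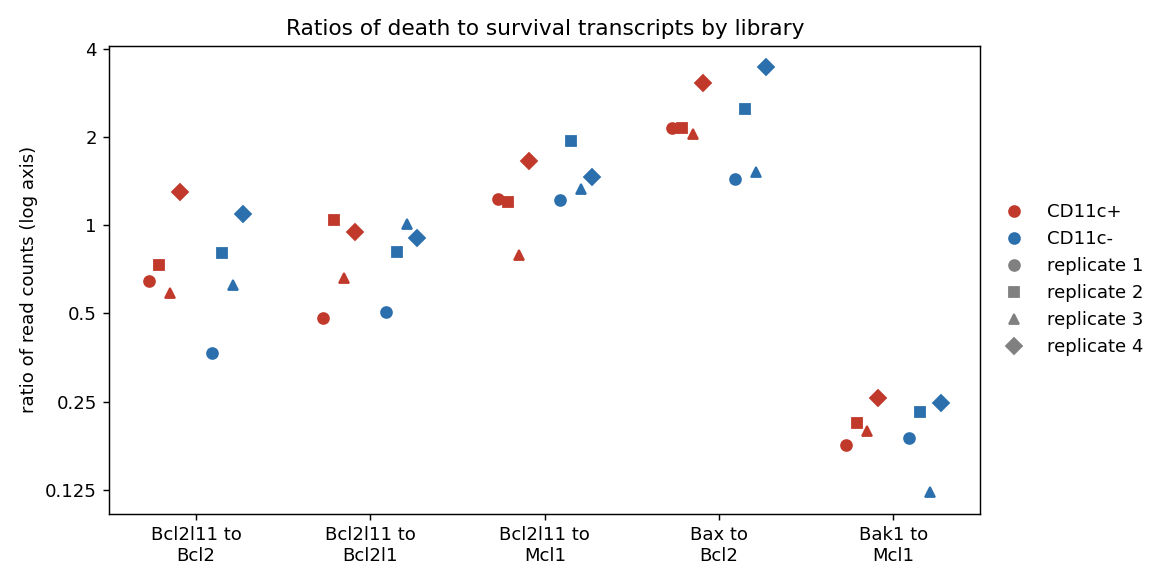
Ratios of read counts (y axis, log scale) for 5 pairs of a death and a survival gene, with each CD11c+ library left of the CD11c- libraries and the symbol giving the replicate number. The subsets overlap in all 5 pairs, and library number 4 has the highest Bcl2l11 to Bcl2 ratio in both.

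Of 16 further family genes, all were found and 7 were tested. None of the 7 passed edgeR's test (0 also at an unadjusted p under 0.05), 3 had positive and 4 negative log2 fold changes, and the median was -0.04. Pmaip1, which encodes NOXA, the BH3-only protein that targets MCL1, was at 47.9, 88.9, 81.2 and 95.1 CPM in CD11c+ and 63.3, 76.9, 71.3 and 56.2 CPM in CD11c- replicates 1 to 4 (log2 fold change 0.23, adjusted p = 0.991). Bmf, another BH3-only gene, had a log2 fold change of 2.17 (SE 1.20, adjusted p = 0.991) that rested on few libraries, at 18.2, 5.06, 0 and 7.79 CPM in CD11c+ and 0, 3.50, 1.13 and 2.11 CPM in CD11c- replicates 1 to 4. Bad, the BH3-only protein restrained by phosphorylation, was at 19.6 ± 7.05 and 26.3 ± 4.96 CPM (SD, n = 4 each, log2 fold change -0.42). Bcl2l13 (log2 fold change 0.06), Bcl2l12 (-0.36), Bnip3l (-0.25) and Bik (-0.04) were the others tested. Below the filter were Bcl2l2, Bcl2a1a, Bcl2a1c, Bcl2l10, Bok, Hrk, Bcl2l14, Bcl2l15 and Bnip3, of which Bcl2l10 and Hrk had 0 reads in all libraries. Bcl2a1a, the third full copy of A1, had at most 0.587 CPM in CD11c+ and 0 in CD11c- libraries, with 69.0% of its windows shared.

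All 15 genes of the apoptosome and caspase list were tested and 0 passed edgeR's test (0 at an unadjusted p under 0.05). Their log2 fold changes were positive for 8 and negative for 7, with a median of 0.04. Casp8, the initiator at death receptors, was at 179 ± 20.6 CPM in CD11c+ and 195 ± 12.7 CPM in CD11c- cells (SD, n = 4 each). Of 6 caspase inhibitor genes 0 passed (0 at an unadjusted p under 0.05), with 5 positive, 1 negative and a median of 0.20. In 1 of the 6, Cflar, whose protein holds back caspase 8 at death receptors, all CD11c+ libraries lay above the CD11c- libraries, as for 1.6% of all genes tested. Cflar, named here after its values were seen, was at 86.2, 79.6, 73.0 and 65.6 CPM in CD11c+ and at 61.8, 60.2, 64.9 and 64.1 CPM in CD11c- replicates 1 to 4 (log2 fold change 0.28, SE 0.16, edgeR, adjusted p = 0.991). Birc5, the gene of survivin, which also acts in mitosis, was at 477 ± 52.3 and 439 ± 41.7 CPM, and Birc6, a large inhibitor that also tags proteins with ubiquitin, at 168 ± 39.6 and 136 ± 39.9 CPM.

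Among 11 genes of the death receptor pathway edgeR's test called 0, and 1 lay under an unadjusted 0.05, beside 4.7% of all genes tested, with 5 positive, 6 negative and a median of -0.05. This was Ripk3, the kinase of necroptosis, at 47.1, 39.5, 80.5 and 79.97 CPM in CD11c+ and 113, 87.8, 94.2 and 101 CPM in CD11c- replicates 1 to 4. All CD11c+ libraries lay below the CD11c- libraries, as for 1.85% of all genes tested, with a log2 fold change of -0.68 (SE 0.23, edgeR, adjusted p = 0.99). The most abundant genes of this list, Tnfrsf1b and Fasl, were at 373 ± 83.6 and 288 ± 23.9 CPM in CD11c+ and at 413 ± 67.2 and 273 ± 35.7 CPM in CD11c- cells (SD, n = 4 each).

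Among 12 regulators of the members edgeR's test called 0, and 2 lay under an unadjusted 0.05, beside 4.7% of all genes tested, with 7 positive, 5 negative and a median of 0.09. These 2 were Huwe1 and Fbxw7. As background, both encode a ubiquitin ligase protein with many substrates, MCL1 among them. Huwe1 was at 131, 121, 119.9 and 104 CPM in CD11c+ and at 86.9, 99.6, 91.0 and 89.7 CPM in CD11c- replicates 1 to 4. Every CD11c+ library lay above the CD11c- libraries, as for 1.6% of all genes tested (log2 fold change 0.37, SE 0.14, edgeR, adjusted p = 0.99). Fbxw7 was at 26.6, 15.7, 21.6 and 8.89 CPM in CD11c+ and at 10.2, 9.24, 10.7 and 7.40 CPM in CD11c- replicates 1 to 4, with 3 CD11c+ libraries above the rest (log2 fold change 0.95, SE 0.39, edgeR, adjusted p = 0.991). Trp53, the gene of p53, was at 241 ± 64.5 and 245 ± 32.3 CPM, and Rela, a subunit of NF-κB, at 168 ± 16.98 and 165 ± 31.1 CPM (SD, n = 4 each).

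Among genes with a mean of at least 10 CPM, those whose pattern over the 8 libraries was most like that of Bcl2 were Thap2, Kdm4c and Rptor, with root mean square differences of 0.147, 0.156 and 0.159 between log2 CPM profiles centred on their own means. The median over the 7452 genes compared was 0.475. For Bcl2l11 they were Dpysl2, Trmt2b and Ctnna1, at 0.108, 0.109 and 0.117 beside a median of 0.386. The CPM of Kdm4c, for example, were 42.0, 47.7, 44.4 and 36.0 in CD11c+ and 60.5, 42.7, 58.3 and 35.4 in CD11c- replicates 1 to 4.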

How the data were processed

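RNA was measured in 8 libraries, 4 per sorted subset. Per the labels' protocols, libraries were made by a modified SMART-seq2 protocol with 10 to 12 preamplification cycles and read as 50 bp single reads. The submitters' processing notes name bcl2fastq, TopHat2 2.0.8b, HTSeq and build mm9. Annotation and strand setting: not given in the sources used here, so antisense and overlapping genes cannot be told apart. As deposited by the authors, values are raw counts of reads for each gene symbol. The 5 summary rows were left out of library sizes and tests. Reads in no annotated gene made up 63.1% to 67.1% and ambiguous reads 0.169% to 0.201% of uniquely placed reads. Alignments at more than 1 place made up 50.3% to 53.6% of the sum of these alignments and the uniquely placed reads.

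The count test was the quasi-likelihood test of edgeR 4.0.16 under R 4.3.3, after filterByExpr and TMM scaling, as CD11c+ minus CD11c-. SE is the log2 fold change divided by the root of F, and 95% intervals use the fit's degrees of freedom. CPM are scaled by TMM. Ratios used counts + 0.5 and had an exact permutation test over all 70 assignments. Alternatives used DESeq2 1.42.0 and limma 3.58.1, among others. The steps were tested on simulated data. Between libraries of a subset, chi-square per degree of freedom was at least 9.79, so no 2 agreed within counting noise. Reads after preamplification are not independent molecules, so this covers counting error only and does not show separate mice.

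The labels give both subsets replicate numbers 1 to 4. Same-numbered libraries deviated together from their subset means (correlation across genes 0.122, 0.141, 0.111 and 0.206), each best with its own number. Pairs by number thus rest on the data and not on the labels. The main fit, its intervals and the exact permutation tests of ratios did not use these pairs, and the replicate block was an alternative. An exact sign-flip test over the 4 pairs gave p = 0.5 for Bcl2l11 to Bcl2, Bcl2l11 to Mcl1 and Bax to Bcl2. It gave 0.875 for Bcl2l11 to Bcl2l1 and Bak1 to Mcl1. The smallest p of this sign-flip test is 0.125.

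The members and gene lists were chosen with earlier results of these data known. All members are named. Of the other lists, genes past the threshold, else those with an unadjusted p under 0.05, are named with up to 2 of highest CPM. 1 gene that this rule names is not reported here. Coding sequences came from GENCODE M21 (GRCm38), and no coordinates were taken from it.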

Additional observations from a re-analysis of the deposited data

Results flagged for a closer look

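In 4 of 30 sets of 4 libraries (10 members and 5 ratios in each subset), 1 library lay far from the other 3, with a gap to its neighbour that passed Dixon's 95% critical value as a share of the whole range. Chance gives this in about 1 of 20 sets. The 30 sets are not independent, since the 5 ratios are built from the members, so 4 of 30 is not read as an excess. Mcl1 was at 89.3 CPM in CD11c+ replicate 3, where the other CD11c+ libraries were at 57.97 to 59.4 CPM, and the CD11c- library of that number was also the highest of its subset, at 69.8 CPM. Neutrophil markers summed to 282 CPM in CD11c+ replicate 3, and their part in the Mcl1 value was not tested. Bcl2l11 was at 98.4 CPM in CD11c+ replicate 4, against 69.7 to 72.1 CPM in the others. The ratio of Bax to Bcl2 was 3.05 in the same library and 2.05 to 2.14 in the other CD11c+ libraries. Bbc3 was at 5.60 CPM in CD11c- replicate 2, where the others were at 2.23 to 2.64 CPM.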

How the results depend on the processing

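In no fit run was a member called. Over 17 alternatives the lowest adjusted p of any member was 0.613, for Bcl2a1d when the 3 libraries with fewest genes detected were left out (log2 fold change 0.86). Signs of members held with RLE factors and with library size only. Without 1 library, log2 fold changes turned sign for Bcl2l1 (-0.15 to 0.22), Bcl2a1b (-0.055 to 0.17) and Bcl2l11 (-0.20 to 0.0016), and so did the log2 ratios of Bcl2l11 to Bcl2 (-0.083 to 0.45), Bcl2l11 to Bcl2l1 (-0.27 to 0.15), Bax to Bcl2 (-0.028 to 0.39) and Bak1 to Mcl1 (-0.071 to 0.27). Bbc3 stayed negative without 1 library (-2.05 to -0.05), and was at 0.29, with the median of the members at 0.16, when the 3 libraries with fewest genes detected were left out. Of all genes, 3 were called higher and 2 lower. The counts were 1 and 0 at a threshold of 0.01, 20 and 9 with DESeq2, and 14 and 5 with limma voom. Counts of higher genes were 10 with no filter, 6 with the stricter filter, 9 with legacy=FALSE, 11 with the replicate block, which changed no member's call, and 9 without the 3 libraries. Without 1 library they were 1 to 4 higher and 0 to 2 lower. The cause was not tested. Depth limits Bbc3 most, at 2 to 47 reads per library.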
